A study of Rattus norvegicus with 22 samples.

Results

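The genes described here encode the constitutive proteasome, its regulatory caps, its activators and the factors that assemble it. They were taken from the array by name, as every gene whose symbol begins with Psma, Psmb, Psmc, Psmd, Psme, Psmf or Psmg followed by a number, without the immunoproteasome subunits Psmb8, Psmb9 and Psmb10. The rule found 44 of the 26583 gene names on the array, and the brightest probe under each name stood for the gene. Of these, 14 are subunits of the core particle, 17 belong to the regulatory cap, 4 are activators and 6 are assembly factors. The remaining 3 were Psma3l, a name that RefSeq now lists as a synonym of Psma3 and that amounts to another probe of that gene, Psmb11, a core subunit of the thymus, and Psmc3ip, which shares the letters of the name but encodes a protein of meiotic recombination rather than a proteasome subunit. Psmf1, an inhibitor of the proteasome, and Psma8, a core subunit of the testis, were on the array under other names and were found by accession, so they are given apart from the 44, and Psma8, well above background on none of the 22 arrays, has no value here.

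The proteasome is the barrel-shaped protease that degrades most ubiquitin-tagged proteins of the cell. Its core is a stack of rings of alpha subunits, which gate the entrance, and beta subunits, of which Psmb5, Psmb6 and Psmb7 carry the chymotrypsin-like, caspase-like and trypsin-like active sites. The cap holds a ring of ATPases (the Psmc genes) that unfolds substrates and a lid and base of other subunits (most Psmd genes) that bind and remove ubiquitin. Activators of the Psme genes can take the place of a cap, and interferon exchanges the constitutive catalytic subunits for Psmb8, Psmb9 and Psmb10. Cancers often depend on proteasome activity, and the transcription factor Nfe2l1 is known to raise the genes of the complex together when activity falls short.

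Tongue tissue came from 11 male F344 rats that had drunk water with the carcinogen 4-NQO (4-nitroquinoline-1-oxide) at 20 ppm for 10 weeks. They were aged about 33 weeks at a necropsy 26 weeks after exposure began, and were younger if taken earlier. Each rat gave 1 piece of oral squamous cell carcinoma (OSCC), collected 23 to 26 weeks after exposure began, and 1 piece of neighbouring tongue of normal phenotype, so that the normal pieces had been exposed to the carcinogen as well. All 22 sample titles carry the word untreated, and the treatment field of the normal pieces reads none, whereas the deposited protocol takes both pieces from treated rats, and that description is used here. A signal is given as log2 of the processed signal over the 75th percentile of its array, so that values of 1 probe can be compared between arrays but not with those of another probe, and a difference is OSCC minus normal within a rat.

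Both pieces were bulk tissue, in which fewer cells of a type and less RNA per cell cannot be told apart. Of 9 markers of squamous epithelium on the array, 7 did not pass the test between the tissues, while Krt15 was called lower (-2.54) and Dsg3 higher (1.07). None of the 9 was below background on every array of either tissue. Krt5, Krt14, Cdh1, Dsp, Dsg3 and Pkp1 had their lowest pair in animal 24, at -4.33 for Krt14 and -1.83 for Cdh1. Krt15, Krt4 and Krt13 had theirs in other pairs. Skeletal muscle markers were called lower for 12 of 16 and higher for 1, and their summed scaled signal was 1880 to 3810 in normal tissue and 117 to 4180 in OSCC. Markers were called higher for 6 of 7 genes of serous and mucous glands, 5 of 6 of macrophages, 6 of 7 of T cells, 5 of 7 of fibroblasts, 2 of 4 of B and plasma cells and 4 of 5 of neutrophils, the fifth of which, Ngp, was called lower. Of 6 markers of endothelium 3 were called lower and none higher, and of 6 of proliferation none was called. In animals 21, 22 and 24 the mean difference of the muscle markers was 1.49, 0.95 and 1.19, whereas it lay between -4.08 and -0.93 in the other 8 pairs. These 3 pairs are treated as standing apart, and the results below are given with and without them where that matters. The normal arrays lay on other slides than the OSCC arrays, and 9 of the 11 OSCC arrays were scanned on another day than the normal arrays, so that slide and tissue cannot be told apart and scan day can be set against tissue only through the pairs of animals 4 and 9, which were scanned within 1 day.

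The mRNA of the proteasome differed little between OSCC and normal tongue. At an adjusted p below 0.05 (limma, 11 pairs, Benjamini-Hochberg adjustment over 30367 probes), none of the 44 genes was called higher and 4 were called lower, against 16.2% and 27.9% of all probes. The genes called lower were Psme4, Psmg4, Psmd10 and Psmc3ip, and among the 31 core and cap subunits no gene was called in either direction. At an unadjusted p below 0.05 the count was 10 of the 44 genes and 4 of the 31 core and cap subunits, a share of 22.7% for the 44 against 54.9% of all probes and 55.8% of those well above background on every array. A change of at least 2-fold with the same adjusted p was seen for 1 gene, Psme4, against 13.8% of all probes. Among the 13597 probes well above background on every array, a set closer in signal to these genes, 19.4% were called higher and 28.4% lower.

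The absence of calls went with narrow errors. The 95% interval of the difference lay within 2-fold in both directions for 31 of 31 core and cap subunits and within 1.5-fold for 29 of them. Of all probes 51.8% had an interval within 2-fold, as had 70.3% of the probes well above background on every array. Within 1.5-fold these shares were 21.6% and 40.6%. The median standard error was 0.11 on the log2 scale for the core and cap subunits and 0.14 for the probes well above background. Of the 44 genes, 43 were well above background on all 22 arrays and none was saturated. The exception was Psmb11, well above background on none of the 22 arrays, whose values are therefore not described, although it stays in the counts over the 44 genes. The size of the differences was also small, with a median absolute value of 0.12 for the core and cap subunits against 0.36 for the probes well above background.

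**Figure D1:**
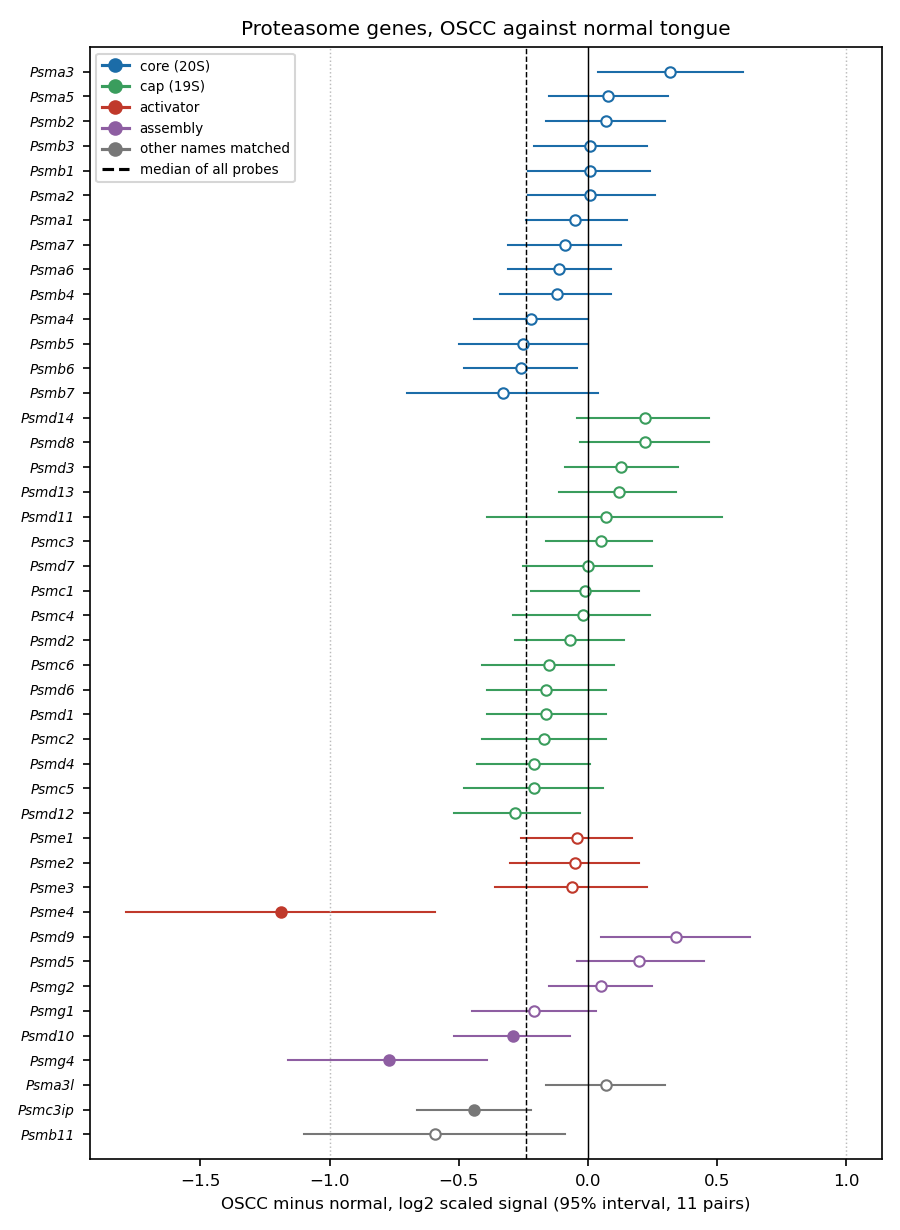
Difference between OSCC and normal tongue for each of the 44 genes, in log2 of the scaled signal with the 95% interval over 11 pairs, grouped by class. Filled points passed an adjusted p of 0.05, the dashed line is the median of all probes at -0.24 and dotted lines mark 2-fold, and the core and cap genes crowd around 0 while Psme4 lies at -1.19. The interval of Psmb11 rests on signals not well above background.

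The scale set the sign of most of these small differences. The median difference was -0.07 for the core, -0.02 for the cap, -0.06 for the activators and -0.08 for the assembly factors, and the median of all probes was -0.24. The class medians thus lay 0.17, 0.22, 0.19 and 0.16 above that of all probes. The median of the probes well above background on every array, closer in signal to these genes, was -0.08, near the class medians. With quantile normalization the median of all probes was -0.03, as was that of the probes well above background. Those of core, cap, activators and assembly factors were 0.08, 0.06, 0.02 and -0.06. With each array centred on its median they were -0.27, -0.23, -0.26 and -0.28, against -0.44 for all probes and -0.28 for those well above background. In that scaling 19 of the 44 genes (43.2%) were called lower, 6 of them core and 7 cap subunits, beside 45.7% of all probes. Over these and the other scalings tried, 6 in all with the background correction, 23 of the 44 genes changed direction, among them 9 of 14 core and 9 of 17 cap subunits. No way of scaling called more than 4 of the 44 genes higher, and none called a core or cap subunit at 2-fold. Quantile normalization called higher the cap subunits Psmc3 (0.20, adjusted p = 0.027), Psmd8 (0.34, adjusted p = 0.014) and Psmd14 (0.29, adjusted p = 0.040, limma). It also called Psmd9, an assembly factor, higher. In either direction it called 18.2% of the 44 genes and 34.6% of all probes. The 75th percentile of detected probes called Psma3, a core subunit, Psmd8 and Psmd9 higher, with 36.1% of all probes called.

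**Figure D2:**
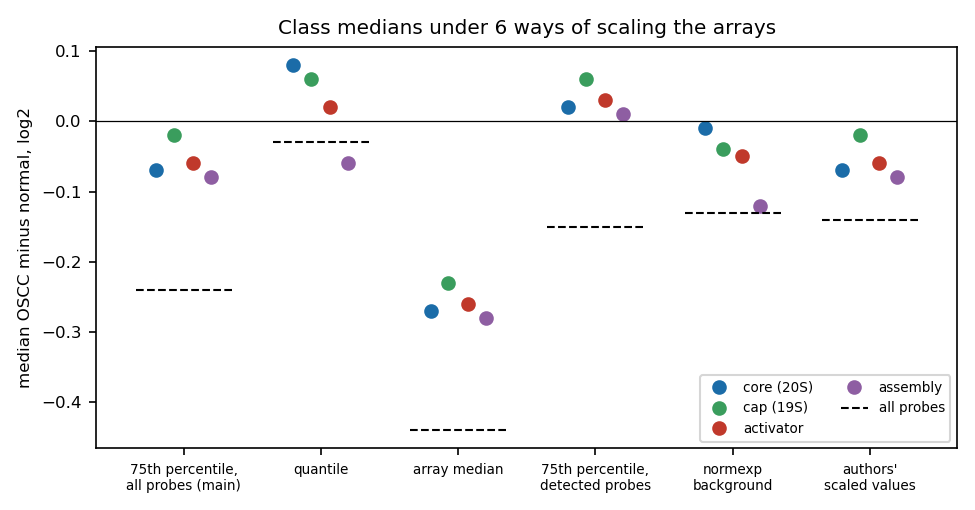
Median difference between OSCC and normal, in log2, of the core, cap, activator and assembly genes (points) and of all probes (dashed lines) under 6 ways of scaling or background-correcting the arrays. The core, cap and activator medians moved with the median of all probes and stayed above it, whereas the median of the assembly genes fell just below it with quantile normalization. The median of the probes well above background on every array, -0.08 in the main processing, is not drawn.

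The core particle was described first by its catalytic subunits. Psmb5, the chymotrypsin-like subunit and the target of proteasome inhibitor drugs, had signals of 3.62 to 4.07 (median 3.79) in normal tissue and 3.22 to 3.90 (median 3.56) in OSCC. The 2 tissues overlapped, and OSCC was lower in 8 of 11 pairs, but the difference of -0.25 (SE 0.12, adjusted p = 0.087, limma) did not pass the test. Psmb6, the caspase-like subunit, had signals of 3.01 to 3.50 (median 3.30) in normal tissue and 2.76 to 3.31 (median 2.99) in OSCC. It was lower in 9 of 11 pairs with a difference of -0.26 (SE 0.10, adjusted p = 0.055, limma). Psmb7, the trypsin-like subunit, ranged from 3.13 to 3.83 (median 3.54) in normal tissue and from 1.57 to 3.74 (median 3.25) in OSCC. The lowest OSCC value, in animal 4, lay far below the next, and the difference of -0.33 (SE 0.17, adjusted p = 0.13, limma) became -0.19 without that pair. Without animals 21, 22 and 24 the catalytic subunits were all called lower, Psmb5 at -0.37 (adjusted p = 0.025), Psmb6 at -0.33 (adjusted p = 0.024) and Psmb7 at -0.51 (adjusted p = 0.043, limma on 8 pairs). In that fit 13 of the 44 genes (29.5%) were called in either direction, and 64.7% of all probes. The pairs left out were those set apart by muscle markers on these same arrays. The part of muscle content in this fit, also where it is used below, was not tested.

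Since the scale of each array could move these values, each catalytic subunit was also set against the median of the other 11 core subunits on the same array, a difference that a constant shift of an array cannot change. This comparison was added after the values had been seen. The change of Psmb6 lay below that of the other core subunits in 10 of 11 pairs, with a mean of -0.21 (SD 0.18, exact two-sided sign-flip permutation test, p = 0.0049, adjusted p = 0.015 over 3 comparisons). Psmb5 was lower than the others in 7 of 11 pairs (mean -0.21, SD 0.29, exact permutation p = 0.044, adjusted p = 0.066). Psmb7 was lower in 8 of 11 pairs (mean -0.28, SD 0.57, exact permutation p = 0.089, adjusted p = 0.089). Psmb6 alone passed after adjustment, with a shift of 1.16-fold, and it also passed with quantile normalization (mean -0.24, exact permutation, adjusted p = 0.015) and with normexp background correction (mean -0.21, exact permutation, adjusted p = 0.044), which do alter differences within an array. With normexp, Psmb7 passed as well (mean -0.40, exact permutation, adjusted p = 0.044).

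The other core subunits spread evenly about 0. The largest alpha difference was that of Psma3, at 0.32 (SE 0.13, adjusted p = 0.060, limma), with signals of -0.72 to -0.24 (median -0.46) in normal tissue and -0.76 to 0.17 (median -0.09) in OSCC, higher in 10 of 11 pairs. Psma3l, the other probe of Psma3, lay 1.1 kb away on chromosome 6 of the rn4 assembly and had a difference of 0.07 (SE 0.11, adjusted p = 0.59, limma). The 2 probes differed by -0.25 (SD 0.33, exact permutation p = 0.038, adjusted p = 0.038 over 4 pairs of probes), so the value for Psma3 depended on the probe read. Psma3l was much the brighter, with a mean of 3.50 in normal tissue against -0.50. The core counts and medians here use the dimmer probe, which carries the name Psma3. The lowest alpha difference was that of Psma4, at -0.22 (SE 0.10, adjusted p = 0.096, limma), and the highest beta difference that of Psmb2, a beta subunit without an active site, at 0.07 (SE 0.11, adjusted p = 0.61, limma).

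The promoters of these genes were searched for the letters of the antioxidant response element, the site of Nfe2l1 and its relative Nfe2l2, to show the letters themselves for some of the core genes. Promoters of 38 of the 44 genes were matched by symbol to RefSeq sequences of assembly GRCr8, and the 250 bases before the start of each gene were read on both strands. The core TGACNNNGC was found in 7 of the 38 (18.4%) and in 10.1% of all 33469 promoters. The following 29-base stretches are shown because they come from a catalytic pair and from Psmb2, the core gene with the highest beta difference. Capitals mark the motif and all are given on the strand of the gene.

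Psmb5, chr15:32047421-32047449, minus strand: cgtgaagctgTGACGTCGCggcgttgccc

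Psmb6, chr10:55737854-55737882, plus strand: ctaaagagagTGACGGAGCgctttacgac

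Psmb2, chr5:144254980-144255008, plus strand: cccgcgccaaTGACCGGGCggtcgcatat

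The motif began 60 bases before the start of Psmb5, 24 before that of Psmb6 and 68 before that of Psmb2. No such letters were found in this window for Psmb7. The GC box GGGCGG was present in 28 of 38 promoters (73.7%) against 30.5% of all promoters, and the CCAAT box in 18 of 38 (47.4%) against 34.0%. The 7 genes with the motif, Psma3, Psmb2, Psmb5, Psmb6, Psmd1, Psmd9 and Psme4, had differences of 0.32, 0.07, -0.25, -0.26, -0.16, 0.34 and -1.19, of which that of Psme4 alone passed the test and those of Psmb2 and Psmd1 changed sign with the scaling.

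The differences of the 17 cap subunits ran from -0.28 to 0.22, and none passed the test. Among the 6 ATPases, the highest difference was that of Psmc3, at 0.05 (SE 0.09, adjusted p = 0.70, limma), with signals of 3.43 to 3.75 (median 3.59) in normal tissue and 3.49 to 3.87 (median 3.68) in OSCC. The lowest was that of Psmc5, at -0.21 (SE 0.12, adjusted p = 0.18, limma), with signals of 4.11 to 4.63 (median 4.31) in normal tissue and 3.70 to 4.51 (median 4.08) in OSCC. Both ranges overlapped between the tissues. Among the 11 other subunits of the cap, Psmd8, part of the lid, was the highest at 0.22 (SE 0.12, adjusted p = 0.14, limma) and was higher in 9 of 11 pairs. Psmd12, also part of the lid, was the lowest at -0.28 (SE 0.11, adjusted p = 0.061, limma) and was lower in 8 of 11 pairs. Psmd14, the deubiquitinase of the lid, had the same difference as Psmd8 at 2 decimals and is named here after its value was seen. Without animals 21, 22 and 24, Psmc5, Psmc6, Psmd4 and Psmd12 were called lower, at -0.37, -0.29, -0.30 and -0.40, and no cap subunit was called higher. Psmc6 and Psmd4 are named after their values were seen. Of all probes, 45.7% were called lower in that fit, so these calls do not set the cap apart.

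The activators fell into 3 flat genes and 1 lower one. Psme1 and Psme2, the partners of the interferon-inducible activator ring, had differences of -0.04 (SE 0.10, adjusted p = 0.73) and -0.05 (SE 0.12, adjusted p = 0.72, limma). Psme1 ranged from 3.57 to 4.18 (median 3.83) in normal tissue and from 3.42 to 4.30 (median 3.78) in OSCC, and Psme2 from 2.70 to 3.43 (median 2.91) and from 2.44 to 3.55 (median 2.78). OSCC spanned a slightly wider range than normal tissue for both genes and included it on either side. Psme3, the nuclear activator, had a difference of -0.06 (SE 0.14, adjusted p = 0.72, limma), with signals of 0.64 to 1.01 (median 0.80) in normal tissue and -0.15 to 1.11 (median 0.83) in OSCC. Its lowest pair was that of animal 4, at -1.15, and without it the difference was 0.05. The signs of these 3 genes changed with the way of scaling. Psmf1, read by accession with 2 probes, had differences of -0.02 (SE 0.10, adjusted p = 0.86) and -0.25 (SE 0.10, adjusted p = 0.052, limma).

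Psme2 carried the interferon-type motif GAAANNGAAA in its promoter, which 4 of 38 members (10.5%) and 3.41% of all promoters had in the 250 bases. The other 3 were Psma4, Psmb3 and Psmd7, constitutive subunits, and among the immunoproteasome genes Psmb10 had the letters while Psmb8 and Psmb9 did not. The stretches of Psme2 and Psmb10 are shown because both genes are known to respond to interferon.

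Psme2, chr15:33052785-33052814, minus strand: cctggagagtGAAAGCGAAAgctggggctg

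Psmb10, chr19:50743346-50743375, minus strand: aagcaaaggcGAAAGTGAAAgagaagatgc

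Psme4, a large activator that caps the core on its own and is known for its part in DNA repair and in the breakdown of histones, was the gene with the largest difference. Its brighter probe, printed 10 times on each array, had signals of 2.04 to 2.78 (median 2.48) in normal tissue and 0.32 to 2.88 (median 0.98) in OSCC. The fall of 1.19 on the log2 scale, or 2.28-fold, had an SE of 0.28 (95% interval -1.79 to -0.59, adjusted p = 0.0059, limma, 11 pairs). The pairs split widely. The difference was -2.38 in animal 11, -2.23 in animal 26, -2.19 in animal 25, -1.90 in animal 9, -1.86 in animal 13, -1.11 in animal 4, -1.02 in animal 16 and -0.72 in animal 17. It was 0.17 in animal 21, 0.13 in animal 24 and 0.03 in animal 22, so that the 3 pairs that stood apart were the only ones without a fall. Without them the difference was -1.68 (adjusted p = 0.00024, limma on 8 pairs). These are also the pairs in which the muscle markers were not lower, and the part of muscle content in the result was not tested. The copies of the probe on 1 array had a median SD of 0.06.

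The second probe of Psme4 did not show this fall. It lay 6.6 kb upstream on the same strand of chromosome 14 and was annotated to the same transcript. Its signals were 0.43 to 1.18 (median 0.73) in normal tissue and 0.43 to 1.58 (median 0.72) in OSCC, and its difference was 0.10 (adjusted p = 0.61, limma). The brighter probe lay below the dimmer one in its change in all 11 pairs, from -2.26 to -0.49, with a mean of -1.29 (SD 0.62, exact permutation p = 0.00098, the smallest that 11 pairs can give, adjusted p = 0.0039 over 4 pairs of probes). With the 2 probes averaged, the gene had a difference of -0.54 and no longer reached 2-fold. The first 30 bases of each 60-base probe are shown, since the value reported for the gene turns on which of them is read. Positions are those of assembly rn4.

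Psme4 brighter probe, chr14:111997089-111997148, plus strand: gagcatacccaggcacagtccctgtacaga

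Psme4 dimmer probe, chr14:111990483-111990542, plus strand: tgctactaccttaagtggtttgttacagtg

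**Figure D3:**
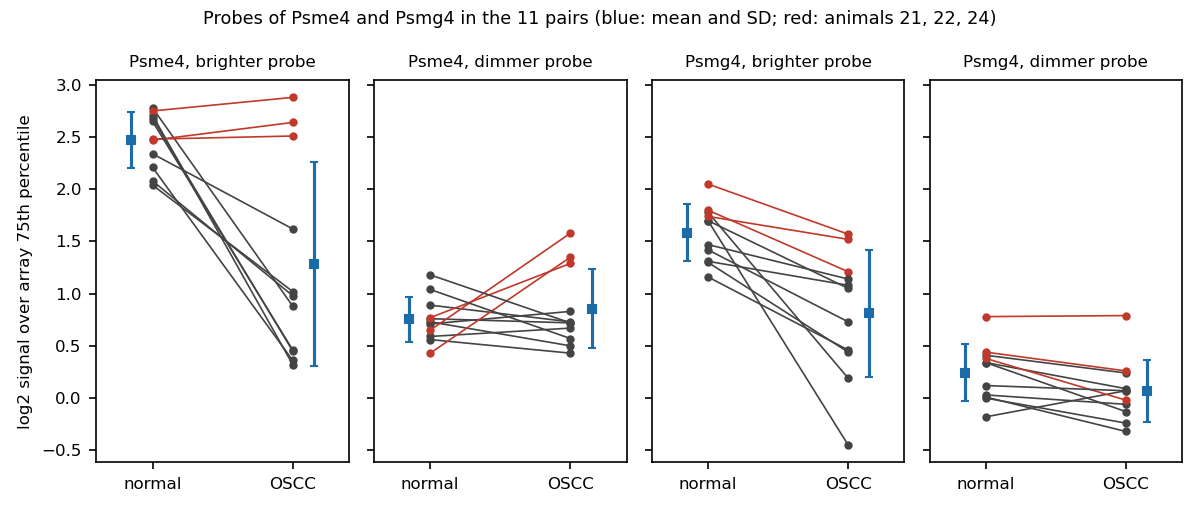
Signal of both probes of Psme4 and of Psmg4 in normal tissue and OSCC, as log2 over the 75th percentile of the array, with 1 line per rat and the mean and SD in blue. The brighter probe of Psme4 falls steeply in 8 rats and stays level in animals 21, 22 and 24 (red), while its dimmer probe is higher in OSCC in those 3, and both probes of Psmg4 are on average lower in OSCC, the brighter one in all 11 rats.

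The assembly factors held the other calls. Psmg4, a chaperone of the early alpha ring, was lower in 11 of 11 pairs by 1.71-fold (difference -0.77, SE 0.18, adjusted p = 0.0056, limma). Its signals were 1.16 to 2.05 (median 1.70) in normal tissue and -0.45 to 1.57 (median 1.05) in OSCC, and the tissues overlapped. The falls ranged from -2.15 in animal 9 to -0.21 in animal 22, and without animals 21, 22 and 24 the difference was -0.90 (adjusted p = 0.0057, limma on 8 pairs). A second probe of Psmg4 had a difference of -0.18 (adjusted p = 0.14, limma) and signals of -0.18 to 0.78 (median 0.34) in normal tissue and -0.32 to 0.79 (median 0.07) in OSCC. The brighter probe fell further than the dimmer one by 0.60 on average (SD 0.61, exact permutation p = 0.0020, adjusted p = 0.0039), though both share 14 bases of the transcript. The stretches where they meet are shown, with the shared bases in capitals.

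Psmg4 dimmer probe, its last 30 bases, chr17:37050938-37050997, minus strand: gaaatggagacctttcCGGAAAAGTTCTGA

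Psmg4 brighter probe, its first 30 bases, chr17:37050892-37050951, minus strand: CGGAAAAGTTCTGAgcagcagaaggaagtg

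Psmd10, the chaperone also known as gankyrin and as an oncoprotein of liver cancer, is named because it passed the test and was lower in 9 of 11 pairs. Its signals were 0.12 to 0.90 (median 0.45) in normal tissue and -0.20 to 0.72 (median 0.15) in OSCC, with a difference of -0.29 (SE 0.10, adjusted p = 0.039, limma). The call was lost when any 1 of 7 pairs was left out and, at an adjusted p of 0.057, without animals 21, 22 and 24. Psmd9, a chaperone of the ATPase ring, had a difference of 0.34 (SE 0.13, adjusted p = 0.054, limma) that missed the test and was positive in 9 of 11 pairs. Its second probe, 6.2 kb away, had a difference of 0.08 (adjusted p = 0.76, limma). The differences of both probes of Psmd9 were 0.27 apart (SD 0.33, exact permutation p = 0.019, adjusted p = 0.025). Without animals 21, 22 and 24, Psmd9 at 0.46 (adjusted p = 0.015) and Psmd5 at 0.32 (adjusted p = 0.035, limma on 8 pairs), another ATPase chaperone named after its value was seen, were the only genes of the 44 called higher. Psmc3ip, which is no proteasome gene, was lower in 11 of 11 pairs (difference -0.44, SE 0.10, adjusted p = 0.0051, limma).

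Pairs differed in how many of the subunits were higher. The median difference of the 31 core and cap subunits ran from -0.35 in animal 17 to 0.32 in animal 13. In animal 13, 30 of the 31 subunits were higher in OSCC, in animals 21 and 22 27 and 24 of 31 were, and in animal 17 1 of 31 was. In the other 7 pairs the count was mixed, from 7 to 15 of 31, and the median lay between -0.24 and -0.02, within the spread of the subunits. Each of these counts moves with the scale of 2 arrays, and 8 of the 11 medians were below 0. In animals 13, 21, 22 and 17 the medians of all probes were -0.34, 0.30, 0.05 and 0.07. Those of the core and cap subunits were 0.32, 0.20, 0.15 and -0.35. In the 7 mixed pairs the median of all probes lay between -0.44 and 0.11. The spread of the subunits within a pair had an SD of 0.15 to 0.33 in 10 pairs and 0.50 in animal 4. In that pair alone a core or cap subunit differed by over 2-fold, Psmb7 at -1.74 and Psmd11, a lid subunit, at -1.78, while Psma3 was at 0.76. Psmd11 is named for this value, which was seen first.

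**Figure D4:**
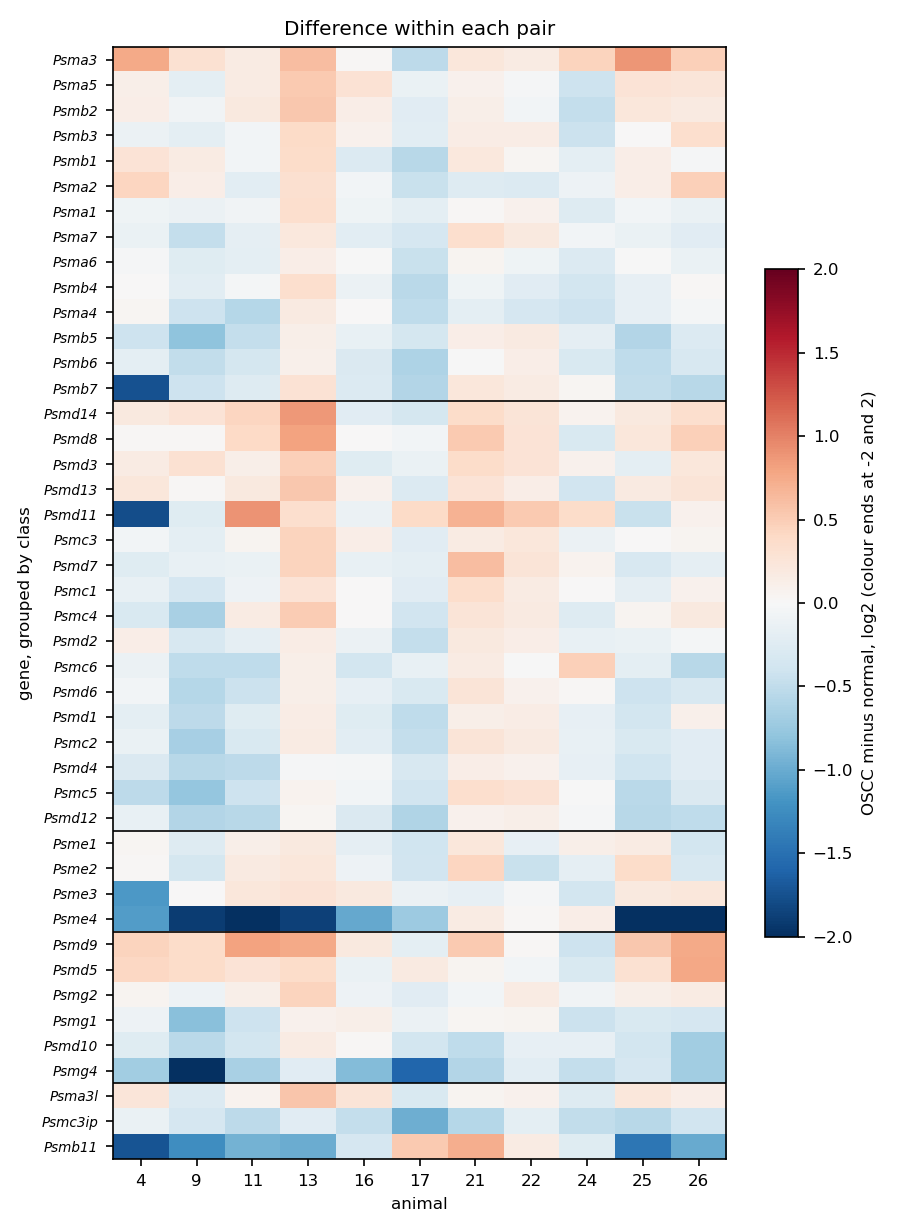
Difference between OSCC and normal within each of the 11 rats (columns) for each of the 44 genes (rows, grouped by class), with blue for lower and red for higher in OSCC on a log2 colour scale that ends at -2 and 2. The columns of animals 13 and 17 have nearly 1 colour over the core and cap, most others are mixed, and the dark cells of Psmb7, Psmd11 and Psme3 all lie in animal 4.

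The scan day was examined next, since it ran nearly along with the tissues. In the pairs of animals 4 and 9, scanned within 1 day, the core medians were 0.00 and -0.20, the cap medians -0.13 and -0.34, Psme4 stood at -1.11 and -1.90 and Psmg4 at -0.70 and -2.15. In the 9 pairs scanned on different days the difference was -1.12 for Psme4 (adjusted p = 0.033) and -0.63 for Psmg4 (adjusted p = 0.018, limma). With scan day as a term, which rests the comparison on those few arrays, none of the 44 genes was called, and of all probes 3 were. At an unadjusted p below 0.05 were 7 of the 44 genes (15.9%) and 36.0% of all probes. Psme4 was then at -1.50 (adjusted p = 0.13) and Psmg4 at -1.43 (adjusted p = 0.085, limma).

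The immunoproteasome subunits, which share the beta ring with the catalytic subunits above, were set beside them. Psmb8, which takes the place of Psmb5, had signals of 0.02 to 1.02 (median 0.38) in normal tissue and 0.09 to 2.17 (median 0.92) in OSCC. It was higher in 8 of 11 pairs by 1.56-fold (difference 0.64, SE 0.24, adjusted p = 0.048, limma), a call lost under 16 of 26 alternatives. Psmb9, which takes the place of Psmb6, had a difference of 0.19 (SE 0.25, adjusted p = 0.54), and Psmb10, which takes the place of Psmb7, one of 0.30 (SE 0.17, adjusted p = 0.16, limma). Within the arrays, where a constant shift of an array cancels, Psmb8 gained on Psmb5 in 10 of 11 pairs, by 0.89 on average (SD 1.04, exact two-sided permutation p = 0.019, adjusted p = 0.056 over 3 comparisons). Psmb9 gained on Psmb6 by 0.46 (SD 0.99, 9 of 11 pairs, exact permutation p = 0.16, adjusted p = 0.16) and Psmb10 on Psmb7 by 0.63 (SD 0.92, 9 of 11 pairs, exact permutation p = 0.044, adjusted p = 0.066). None of the 3 passed after adjustment. With quantile normalization the means were 0.77, 0.39 and 0.57 and again none passed, and with normexp they were 0.65, 0.38 and 0.72, of which Psmb10 over Psmb7 passed (10 of 11 pairs, exact permutation, adjusted p = 0.038). In the main processing the intervals were wide, 0.20 to 1.59 for Psmb8 over Psmb5. Animal 22 had the lowest value in each comparison, at -1.11, -1.51 and -0.83.

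**Figure D5:**
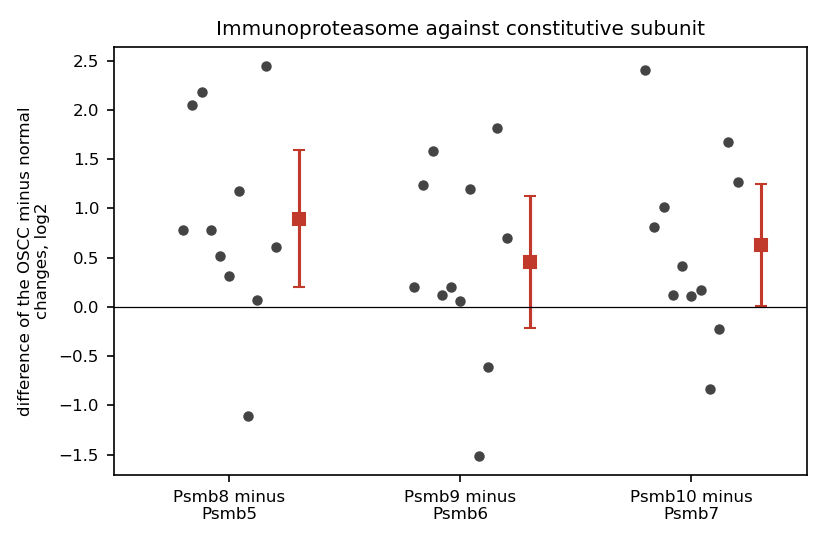
Change of each immunoproteasome subunit minus that of the constitutive subunit it replaces, in log2, with 1 point per rat and the mean with its 95% interval in red. Most points lie above 0, with a spread of about 1 log2 unit, and animal 22 is the lowest in all 3 comparisons.

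Of 32 other genes of the pathway on the array, taken from a list of immunoproteasome, ubiquitin, shuttle, regulator and interferon genes, 7 were called higher, 6 lower and 19 not called. The share called, 40.6%, was near that of all probes (16.2% higher and 27.9% lower), so it sets the list apart from no other genes. The genes named next, apart from Ddi2, were chosen after their values were seen, whether or not they passed the test. Among the interferon genes, Irf1 (0.88, adjusted p = 0.011), B2m (0.63, adjusted p = 0.0075) and Gbp2 (0.94, adjusted p = 0.040) were called higher (limma). Of the ubiquitin genes, Rps27a, a fusion of ubiquitin with a ribosomal protein, was called lower (-0.33, adjusted p = 0.026, limma), and Ubb, a polyubiquitin gene, was not called, at 0.11 (adjusted p = 0.39, limma).

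The shuttles that carry ubiquitin-tagged proteins to the cap went in both directions. Rad23b rose in 11 of 11 pairs (0.46, adjusted p = 0.0033) and Ubqln1 in 9 of 11 (0.43, adjusted p = 0.016), while Ubqln4 fell in 11 of 11 (-0.88, adjusted p = 0.0010, limma). Adrm1, the ubiquitin receptor of the cap that the naming rule does not reach, was called lower at -0.33 (adjusted p = 0.038), and Pomp, the chaperone of core maturation, had -0.22 (adjusted p = 0.076, limma).

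Among the regulators of proteasome genes, Nfe2l1 itself was at 0.01 (SE 0.15, adjusted p = 0.96, limma). Ddi2, the protease that activates the Nfe2l1 protein, was well above background on 1 normal array and on 10 OSCC arrays. It was higher in 10 of 11 pairs (adjusted p = 0.00061, limma on the measured signals, in normal tissue mostly not well above background). Its mean signal over all OSCC arrays lay 1.98-fold above a floor for normal tissue, to which that p-value does not apply. The floor was the mean, over normal arrays, of the lowest signal among probes well above background or of its own signal where that was higher. Ngly1, which removes sugars from the Nfe2l1 protein, was lower (-0.44, adjusted p = 0.040), as was Nfe2l2 (-0.28, adjusted p = 0.036, limma). These values were read beside core and cap subunits of which none was called.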

How the data were processed

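RNA from 11 pairs of OSCC and neighbouring normal tongue was measured on one-color Agilent Rat GE 4x44K v3 arrays. Per the file headers, the authors used Feature Extraction 9.5.3.1 to make the deposited intensity values, subtracting background and spatial trends. They also deposited the ratio of this signal to the 75th percentile of each array, used here as an alternative. Control spots and 9196 outlier spots (0.975% of all) were left out, the log2 intensities of the spots of each of 30367 probes were averaged, and from these the 75th percentile of the array was subtracted, with no filter on dim probes. The 75th percentile itself was 236.8 to 654.9 units in normal tissue and 338.7 to 1414 in OSCC. The main test was a limma model (limma 3.58.1, R 4.3.3) of tissue with the rat as a block, since each rat gave both pieces, and Benjamini-Hochberg adjustment over all probes. The deviations of the 2 pieces of a rat had correlations of -0.21 to 0.24 (median -0.02). For arrays, their number limits the precision.

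Single values were compared by exact two-sided sign-flip permutation tests over the 11 pairs in Python 3.11.15. The fit was tested on simulated data. The members, classes, lists and tests were chosen with earlier results of these data known, so that p-values describe these arrays and are not independent evidence. Genes named are the activators, the catalytic subunits, the highest and lowest of each other subgroup, those called at 2-fold, and, of the pathway list, the immunoproteasome and those called at 2-fold. Others are said to be named after their values were seen. Accessions of 40 members matched the RefSeq table of GRCr8, and promoter sequences are from RefSeq. Proteins were not analysed here. Values of some genes of the pathway list are not reported here. Alternatives comprised other scalings, background correction, probe averaging, filters, batch terms and pairs left out.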

Additional observations from a re-analysis of the deposited data

How the results depend on the processing

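The count of genes called among the 44 depended on the processing. Called lower were 4, and 19 with centring on the array median, 2 with normexp background correction, 10 with no replicate block, 8 and 11 with the paired test of each probe (adjusted and unadjusted), 9 with a filter on dim probes, 11 without animals 21, 22 and 24 and 0 with scan day as a term. Of all probes, the shares called lower were 27.9%, 45.7%, 6.8%, 31.6%, 24.2%, 34.8%, 32.0%, 45.7% and 0.00988%, in the same order. Genes called higher, 0 at first, numbered 4 with quantile normalization, 3 with the 75th percentile of detected probes, 2 with no replicate block, 2 with slide as a random block, 1 and 5 with the paired test, 2 with the filter and 2 without animals 21, 22 and 24. In these settings, the shares of the 44 genes called in either direction were 18.2%, 13.6%, 27.3%, 15.9%, 20.5%, 36.4%, 25.6% (of 43 genes) and 29.5%. Those of all probes were 34.6%, 36.1%, 48.6%, 38.6%, 39.7%, 53.6%, 55.5% and 64.7%. Leaving out 1 pair at a time gave 0 to 2 called higher (2 without animal 17) and 3 to 7 called lower (7 without animal 22). The shares called in either direction were then 6.82% to 18.2% of the 44 genes and 28.3% to 53.9% of all probes. The single gene at 2-fold, Psme4, was lost with scan day as a term (0) and with probes averaged (0). Class medians moved by more than the SD between pairs to -0.31 (cap) and -0.37 (activators) with scan day as a term, to -0.28 (assembly) on the array median, and in single pairs scanned within 1 day to -0.34 (cap, animal 9), -0.55 (activators, animal 4) and -0.32 (assembly, animal 9). Of all probes, 13376 were called, 3715 with normexp, 3 with scan day as a term, 17251 with the array median, 19636 without animals 21, 22 and 24, 6717 in the 9 pairs scanned on different days, 8504 with the filter on dim probes, and 8583 (without animal 9) to 16367 (without animal 24) with 1 pair left out. The 13 pathway genes called became 2 with normexp, 0 with scan day as a term, 4 in the 9 pairs scanned on different days, and 6 to 12 with 1 pair left out. None of the named genes reversed with a call on either side, and Psme4 and Psmg4 lost their calls only with scan day as a term. The cause of these shifts was not tested, apart from the fewer pairs, probes or degrees of freedom that some alternatives use.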
